A study of Mus musculus with 8 samples.

Results

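This account covers 10 genes of the hepatic Wnt and β-catenin pathway, taken by name from the 19055 genes in the deposited table of mouse liver RNA. Of them, 9 are β-catenin target and Wnt feedback genes, Axin2, Lgr5, Rnf43, Znrf3, Tbx3, Nkd1, Notum, Sp5 and Lect2, and the tenth is Ctnnb1, which encodes β-catenin. All 10 were present in the table and all 10 passed the filter on low values, 10 or more normalized reads in 3 or more libraries, as did 13704 genes in all. Sp5 passed it through URI(+/D)Hep 1, 4 and 5 alone, since no control library reached 10. The livers came from mice aged 8 to 9 weeks, killed 48 hours after partial hepatectomy, an operation that removes part of the liver and sets off regrowth. All mice had received tamoxifen for 1 week. Of 8 libraries, 3 were labelled URI(+/+)Hep, here control 1 to 3, and came from wild-type littermates, and 5 were labelled URI(+/D)Hep. In the latter, URI was deleted in hepatocytes with serum albumin-creERT2, a Cre recombinase active only in the presence of tamoxifen. The notation places the D allele next to a + allele. The libraries count the 3′ ends of transcripts from whole liver RNA, so that a lower level can mean fewer cells of a type or less RNA per cell, which cannot be told apart.

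Wnt ligands bind Frizzled receptors with Lrp5 or Lrp6 and stop a destruction complex of Axin, Apc and Gsk3 from marking β-catenin for degradation. Stabilised β-catenin enters the nucleus and switches on targets together with Tcf and Lef factors, which bind the core word CTTTG followed by A or T. Several of the targets feed back on the pathway itself, as Axin2, Rnf43, Znrf3, Nkd1 and Notum do. In the resting liver this signalling is strongest in hepatocytes around the central vein, where endothelial cells supply Wnt2 and Wnt9b, and it sets the pericentral programme marked by Glul, the glutamine synthetase. Ccnd1 encodes cyclin D1, which carries cells through G1 and is itself a β-catenin target in many tissues, and Mki67 is a marker of cycling cells.

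Promoter windows were shown for 3 members, because they differ in the word bound by Tcf and Lef factors. RefSeq entries of GRCm38.p6, a build other than the GRCm39 named by the submitters, matched 6 of the 10 genes with 8 windows. The windows below are the 250 bases before the start site, 5′ to 3′ on the gene's strand, and capitals mark CTTTGA or CTTTGT on either strand. The Sp5 window lies at chr2:70474673-70474922 on the plus strand, the Lect2 window at chr13:56548539-56548788 on the minus strand and the Axin2 window at chr11:108920099-108920348 on the plus strand.
Sp5: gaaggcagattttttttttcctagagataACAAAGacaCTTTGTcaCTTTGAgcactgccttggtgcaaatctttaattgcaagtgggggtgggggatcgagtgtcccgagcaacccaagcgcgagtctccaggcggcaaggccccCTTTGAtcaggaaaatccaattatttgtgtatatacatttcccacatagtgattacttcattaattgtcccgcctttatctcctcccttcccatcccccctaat
Lect2: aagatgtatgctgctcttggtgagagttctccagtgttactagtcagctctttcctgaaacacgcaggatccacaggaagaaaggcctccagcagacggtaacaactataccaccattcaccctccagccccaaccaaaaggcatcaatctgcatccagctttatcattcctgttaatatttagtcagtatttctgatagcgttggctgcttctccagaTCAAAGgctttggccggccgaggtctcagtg
Axin2: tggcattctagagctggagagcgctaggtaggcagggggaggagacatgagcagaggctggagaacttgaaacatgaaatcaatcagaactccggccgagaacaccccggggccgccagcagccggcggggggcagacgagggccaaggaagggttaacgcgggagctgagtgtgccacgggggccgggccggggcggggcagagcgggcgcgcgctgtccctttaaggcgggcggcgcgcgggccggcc

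The Sp5 window held 4 matches, at 221, 212, 204 and 104 bases before the start, and the Lect2 window held 1, at 31 bases before the start. A stretch of bases after the start was found in a transcript of the gene for Sp5 and Axin2. For Lect2 and Nkd1 it was not, which leaves their listed starts unchecked. The Axin2 window held none, nor did those of Rnf43, Nkd1 and Ctnnb1. Of 32851 RefSeq windows of this length, 27.6% held at least 1 match and 0.0944% held 4 or more. CTTTGA occurred in 13.8% of the windows and CTTTGT in 16.5%. A match describes the letters of the window and does not show that a factor bound there.

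Libraries that stood apart were identified first. Depth ranged from 3838674 to 4800694 reads per library, and 3 reads corresponded to 2.65 to 3.60 normalized reads. Mki67 was far lower in control 1 (24.0) and URI(+/D)Hep 5 (49.5) than in the other 6 libraries (268 to 586). Xist, the transcript of the inactive X chromosome, was at 9.59 in control 1 and 2.95 in control 2, against 1217 to 2357 in the other 6 libraries, while the summed level of 4 Y-linked genes was 3.54 in URI(+/D)Hep 1 and 569 to 1558 in the other 7. Hence 5 libraries held both kinds of transcript, and control 3 was the only control among them. Epcam, a cholangiocyte gene, was at 525 in URI(+/D)Hep 5 and at 7.96 to 29.96 in the other 7. Uri1, the targeted gene, was at 468, 374 and 310 in the controls and at 328, 398, 437, 354 and 401 in URI(+/D)Hep 1 to 5 (log2 fold change 0.01, SE 0.15, limma adjusted p = 0.975). The sources used here do not state which part of Uri1 the D allele lacks, so reads from the 3′ end do not check the labels.

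The question set by the labels is which transcripts differ between livers with and without the URI deletion during regrowth. Of the 10 members, 8 were higher on average in URI(+/D)Hep and 2, Lect2 and Ctnnb1, were lower, and none of these differences passed adjustment over 13704 genes. The median log2 fold change of the members was 0.69, against -0.00 over all genes tested, 49.8% of which were higher. With limma, 0 members had an adjusted p under 0.05. Over all genes the same test called 0 higher (0%) and 2 lower (0.0146%). At an unadjusted p under 0.05, 3 members were higher, where 8.35% of all genes were, and 1 was lower, where 9.33% were. Sp5, which passed the filter through URI(+/D)Hep libraries alone, is among the 8 and among the 3. The count tests on recovered reads also called 0 members. With edgeR, which called 3 genes of all (0.0219%), the smallest adjusted p of a member was 0.164. In the same edgeR test 3 members, again with Sp5 among them, had an unadjusted p under 0.05, as had 17.7% of all genes. DESeq2 called 234 genes higher and 339 lower, 4.97% of those with an adjusted p. It returned an adjusted p for 7 of the 10 members, the smallest 0.0552, and 3 members had an unadjusted p under 0.05, as had 17.1% of all genes. The p-values measure the spread between these libraries, and the labels do not say whether each came from 1 animal or from a pool of animals.

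**Figure D1:**
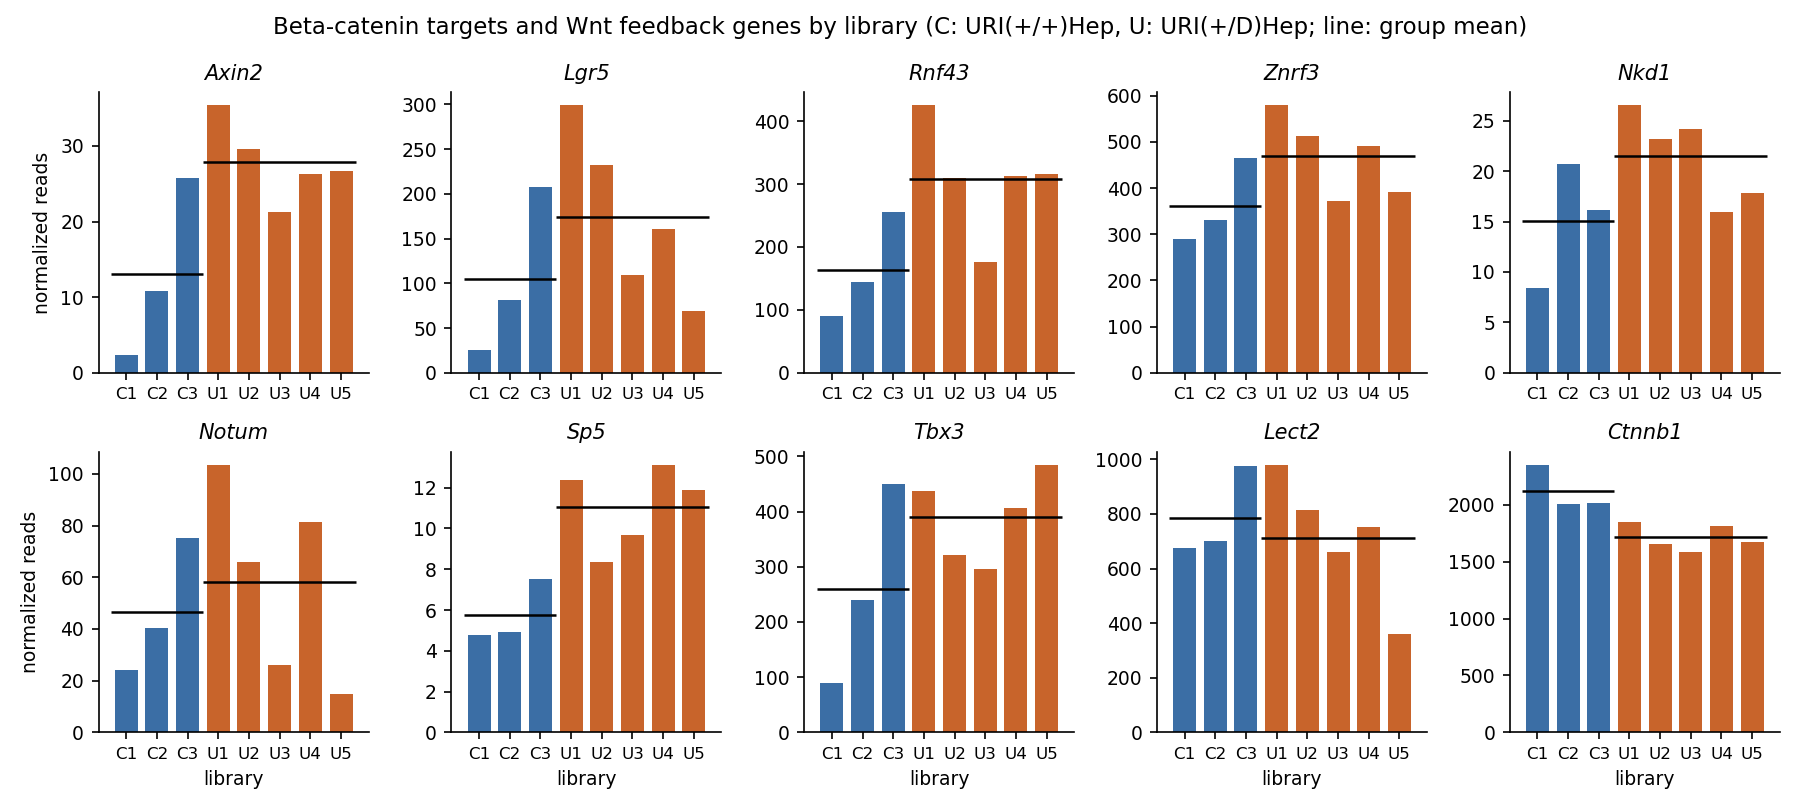
Normalized reads (vertical axis, from 0) of the 10 members in each library, with bars in blue for URI(+/+)Hep (C1 to C3), in orange for URI(+/D)Hep (U1 to U5) and a line at each group mean. C1 is the lowest bar for Axin2, Lgr5, Rnf43, Znrf3, Nkd1, Sp5 and Tbx3, and the groups are apart only for Sp5 and Ctnnb1.

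Among the feedback genes, Axin2, a scaffold that rebuilds the destruction complex, had the largest fold difference of the members. It was at 2.40, 10.8 and 25.7 in control 1 to 3 and at 35.4, 29.6, 21.3, 26.2 and 26.7 in URI(+/D)Hep 1 to 5. The groups overlapped, because control 3 stood among the URI(+/D)Hep libraries while controls 1 and 2 lay below all of them. The means were 13.0 ± 11.8 (SD, n = 3) and 27.8 ± 5.17 (SD, n = 5), and the log2 fold change was 1.47 (SE 0.56, 95% interval 0.20 to 2.75, limma adjusted p = 0.228). Control 1 held only 2 reads of this gene, with an exact Poisson interval of 0.242 to 7.22 reads for counting error only. URI(+/D)Hep 5, the other library of low Mki67, held 27 reads, a ratio of 11.1 to control 1 with an exact counting interval of 2.80 to 96.6. Without control 1 the log2 fold change of Axin2 was 0.68, and without control 3 it was 2.17.

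Rnf43 and Znrf3 encode membrane ubiquitin ligases that remove Frizzled receptors from the cell surface. Rnf43 was at 89.9, 145 and 256 in the controls and at 425, 309, 177, 313 and 316 in URI(+/D)Hep 1 to 5. Only URI(+/D)Hep 3 fell within the control range. The log2 fold change was 0.98 (SE 0.35, 95% interval 0.19 to 1.78, limma adjusted p = 0.203), from 164 ± 84.8 (SD, n = 3) to 308 ± 88.1 (SD, n = 5). Znrf3 varied less, at 290, 330 and 466 in the controls and 579, 513, 372, 491 and 391 in URI(+/D)Hep 1 to 5. Its groups overlapped through control 3, and the log2 fold change was 0.38 (SE 0.19, 95% interval -0.06 to 0.82, limma adjusted p = 0.340). Both ligases were lowest in control 1 and highest in URI(+/D)Hep 1. Without control 1 the log2 fold change was 0.62 for Rnf43 and 0.24 for Znrf3.

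Nkd1 encodes an inhibitor that binds Dishevelled, and Notum a secreted enzyme that strips the lipid from Wnt ligands. Nkd1 was at 8.39, 20.7 and 16.1 in the controls and at 26.5, 23.1, 24.2, 15.9 and 17.8 in URI(+/D)Hep 1 to 5, so that the groups overlapped at a low level. The log2 fold change was 0.55 (SE 0.32, 95% interval -0.18 to 1.28, limma adjusted p = 0.408), and without control 1 it was 0.20. Notum was at 24.0, 40.4 and 75.1 in the controls and at 103, 65.7, 26.1, 81.5 and 14.8 in URI(+/D)Hep 1 to 5. URI(+/D)Hep 5 was the lowest of all 8 libraries for Notum and URI(+/D)Hep 1 the highest. The log2 fold change was 0.15 (SE 0.64, 95% interval -1.29 to 1.60, limma adjusted p = 0.925), and it changed sign without control 1 (-0.23).

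Lgr5, the receptor for R-spondins that protects Frizzled from the 2 ligases, spread over the widest range after Axin2. It was at 25.2, 80.7 and 207 in the controls and at 299, 232, 109, 160 and 69.2 in URI(+/D)Hep 1 to 5. Each group held both low and high libraries, and only URI(+/D)Hep 1 and 2 exceeded control 3. The means were 104 ± 93.2 (SD, n = 3) and 174 ± 92.7 (SD, n = 5), and the log2 fold change was 1.01 (SE 0.66, 95% interval -0.48 to 2.51, limma adjusted p = 0.453). Without control 1 it was 0.24.

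Sp5 and Tbx3 encode transcription factors, Sp5 a repressor that limits the response to Wnt and Tbx3 a T-box factor expressed in pericentral hepatocytes. Sp5, the gene with 4 matches in the window printed above, was at 4.80, 4.92 and 7.51 in the controls and at 12.4, 8.33, 9.67, 13.1 and 11.9 in URI(+/D)Hep 1 to 5. These are counts of 4, 5 and 7 reads against 14, 9, 10, 14 and 12 reads. All 5 URI(+/D)Hep libraries lay above all controls for Sp5, as for 6.13% of all genes tested. The filter favoured this order, since Sp5 passed it through URI(+/D)Hep libraries alone, so its group values describe and do not test a difference. Its means were 5.74 ± 1.53 (SD, n = 3) and 11.1 ± 1.999 (SD, n = 5), and its log2 fold change was 0.85. Tbx3 was at 89.9, 239 and 451 in the controls and at 438, 322, 297, 407 and 485 in URI(+/D)Hep 1 to 5. Control 3 exceeded 4 of the 5 URI(+/D)Hep libraries, and only URI(+/D)Hep 5 was higher. The log2 fold change of Tbx3 was 0.84 (SE 0.43, 95% interval -0.13 to 1.82, limma adjusted p = 0.343), and without control 1 it was 0.22.

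Lect2 encodes a protein secreted by hepatocytes and was the most even of the targets among the controls. It was at 675, 701 and 977 in the controls and at 979, 816, 659, 752 and 360.0 in URI(+/D)Hep 1 to 5. The groups overlapped, with URI(+/D)Hep 5 far below the other 7 libraries. The log2 fold change was -0.19 (SE 0.29, 95% interval -0.85 to 0.47, limma adjusted p = 0.772), and it changed sign without URI(+/D)Hep 5 (0.037).

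Ctnnb1, which was lower in URI(+/D)Hep as Lect2 was, encodes β-catenin itself. Its protein is governed largely through degradation, so the level of its transcript is not a measure of pathway activity. It was at 2349, 2007 and 2015 in the controls and at 1846, 1656, 1580, 1809 and 1670 in URI(+/D)Hep 1 to 5. All 5 URI(+/D)Hep libraries lay below all controls, as for 7.3% of all genes tested. The means were 2124 ± 196 (SD, n = 3) and 1712 ± 111 (SD, n = 5), and the log2 fold change was -0.31 (SE 0.10, 95% interval -0.53 to -0.08, limma adjusted p = 0.176). The adjusted p of Ctnnb1 ranged from 0.0552 with DESeq2 to 0.616 over the alternatives, and its sign held in all 24.

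**Figure D2:**
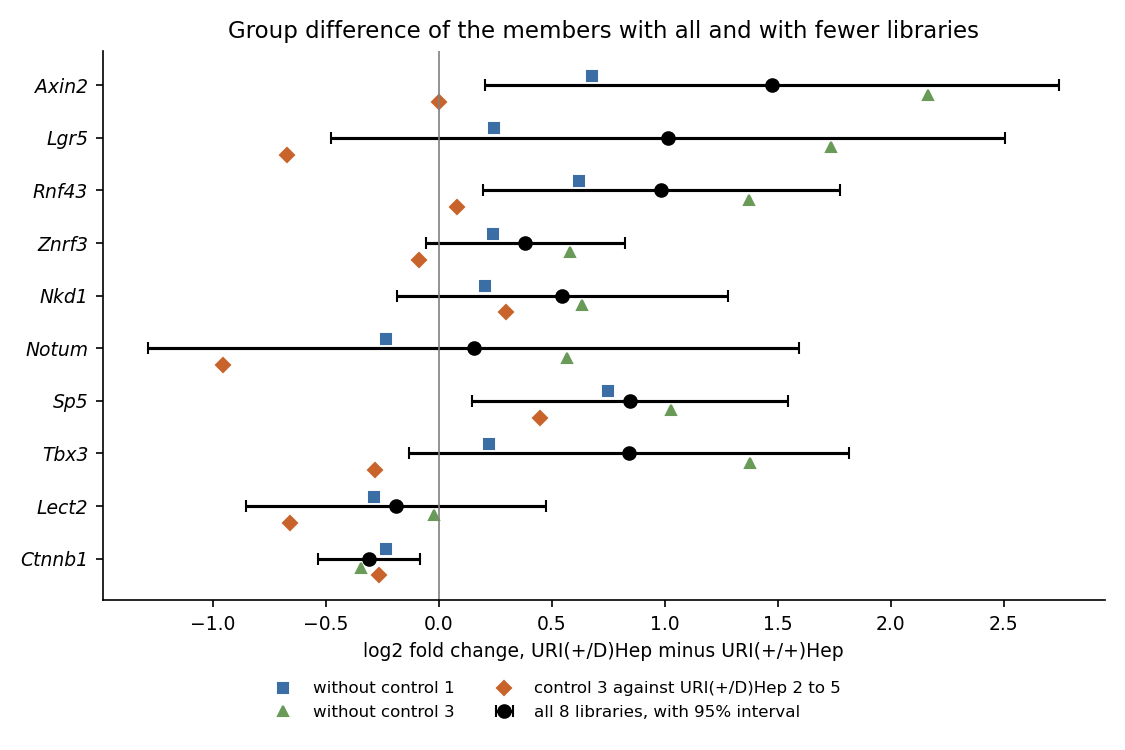
Log2 fold change of each member (horizontal axis, URI(+/D)Hep minus URI(+/+)Hep), as circles with 95% intervals for all 8 libraries, squares without control 1, triangles without control 3, and diamonds for control 3 against URI(+/D)Hep 2 to 5. The diamonds lie at or below 0.45 for every member, while the triangles of Axin2, Lgr5, Rnf43 and Tbx3 lie at 1.37 to 2.17.

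The difference between groups moved with which controls entered it. Of the 9 targets and feedback genes, control 1 was the lowest library for 7 and URI(+/D)Hep 5 for the other 2, Notum and Lect2, while URI(+/D)Hep 1 was the highest for 7. Such shares were not counted over all genes. Within the 5 libraries that held both Xist and Y-linked reads, control 3 against URI(+/D)Hep 2 to 5, the log2 fold change was 0.00 for Axin2, 0.08 for Rnf43 and 0.45 for Sp5. In that comparison it was -0.28 for Tbx3, -0.67 for Lgr5, -0.66 for Lect2 and -0.96 for Notum, with the median of the 10 members at -0.18. That comparison has 1 control library, which is assumed to vary like the others. With all 8 libraries the groups did not overlap for 2 members, Sp5, where the filter favoured this order, and Ctnnb1. Of all genes, 6.13% were higher and 7.3% lower without overlap. Without control 3 the groups did not overlap for 6 members, and for 25% of all genes tested. Without URI(+/D)Hep 3 they did not overlap for 4 members, and for 16.5% of all genes. With the share of the 4 Y-linked genes in each library as a covariate, over all 8 libraries, no member was called. The log2 fold change was then 0.87 for Axin2, 0.52 for Rnf43, 0.17 for Lgr5 and 0.13 for Znrf3, and it was negative for Notum. The part of the Xist and Y-linked make-up in these differences was not tested beyond these values.

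Control 1 and URI(+/D)Hep 5 had in common a low Mki67, with a ratio of 2.06 between URI(+/D)Hep 5 and control 1, yet they differed in the members. The ratio of URI(+/D)Hep 5 to control 1 was 5.39 for Tbx3, 3.52 for Rnf43, 2.75 for Lgr5, 2.47 for Sp5, 2.12 for Nkd1 and 1.35 for Znrf3. It was 0.711 for Ctnnb1, 0.619 for Notum and 0.533 for Lect2. The ratio was 2.10 for Ccnd1 and 3.37 for Glul. With 1 library of each kind, these ratios have no replicate check.

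The members were then related to Ccnd1 and Mki67. Ccnd1 was at 1317, 2779 and 3914 in the controls and at 4742, 4519, 3535, 3842 and 2760 in URI(+/D)Hep 1 to 5, and control 1 stood below the other 7 libraries. Its group difference did not pass the test (log2 fold change 0.65, SE 0.32, limma adjusted p = 0.330), nor did that of Mki67 (0.82, SE 1.03, limma adjusted p = 0.720). Mki67 was at 24.0, 282 and 468 in the controls and at 469, 333, 268, 586 and 49.5 in URI(+/D)Hep 1 to 5.

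A slope of each gene on the log2 level of Ccnd1 was fitted with the group held, and limma called it positive for 4 members. Over all genes, 8.74% were called with a positive and 4.06% with a negative slope. Lgr5 rose by 2.03 log2 units per log2 unit of Ccnd1 (SE 0.19, limma adjusted p = 0.00108). The slope was 1.54 for Axin2 (SE 0.31, limma adjusted p = 0.0151), 1.04 for Tbx3 (SE 0.30, limma adjusted p = 0.0488) and 0.47 for Znrf3 (SE 0.13, limma adjusted p = 0.0480). Notum (1.53, limma adjusted p = 0.0524) and Rnf43 (0.82, limma adjusted p = 0.0582) missed the threshold. So did Lect2 at 0.62, Nkd1 at 0.62, Sp5 at 0.19 and Ctnnb1 at -0.09, with limma adjusted p from 0.107 to 0.751. For comparison, Glul had a slope of 1.17 (limma adjusted p = 0.00651).

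The slopes moved with control 1. Without it, 0.62% of all genes had a called positive slope on Ccnd1. The members called were Lgr5 (2.67, limma adjusted p = 0.0155) and Lect2 (1.53, limma adjusted p = 0.0485). Tbx3 dropped from 1.04 to 0.21 (limma adjusted p = 0.832) and Axin2 from 1.54 to 0.95 (limma adjusted p = 0.332). Without control 3, Lgr5 was the only member called, where 1.75% of all genes were, and without URI(+/D)Hep 1 the members called were Lgr5 and Axin2, where 5.81% of all genes were. Without control 1 and URI(+/D)Hep 5 together, none of the 10 was called, where 0% of all genes had a called positive slope, with Lgr5 at 2.93 (limma adjusted p = 0.191) over the 6 libraries left. The call of Tbx3 was lost in 9 of 13 alternatives and that of Znrf3 in 7 of 13.

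On Mki67, limma called a positive slope for 3 members, Lgr5 (0.57, SE 0.10, adjusted p = 0.00515), Notum (0.51, SE 0.12, adjusted p = 0.0192) and Lect2 (0.21, SE 0.06, adjusted p = 0.0474). Of all genes, 10.5% were called with a positive and 5.17% with a negative slope on Mki67. The other 7 members were not called, with slopes from -0.02 for Ctnnb1 to 0.38 for Axin2 and limma adjusted p from 0.0713 to 0.767. Without control 1, Notum (0.75, limma adjusted p = 0.0154) and Lect2 (0.38, limma adjusted p = 0.00732) were called, against 4.48% of all genes, and Lgr5 missed the threshold (0.53, limma adjusted p = 0.0786). Without URI(+/D)Hep 5, Tbx3 (0.50, limma adjusted p = 0.000762), Axin2 (0.62, limma adjusted p = 0.00935) and Rnf43 (0.34, limma adjusted p = 0.0415) were called beside Lgr5, against 10.6% of all genes, and Notum (0.40, limma adjusted p = 0.0911) and Lect2 (0.10, limma adjusted p = 0.269) were not. Without control 3, Lgr5 was the only member called, against 5.29% of all genes, and without both libraries of low Mki67 no member was, against 2.14%. The call of Lect2 was lost in 8 of 13 alternatives. URI(+/D)Hep 5 was itself the lowest library for Notum and Lect2 and the highest for Tbx3.

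**Figure D3:**
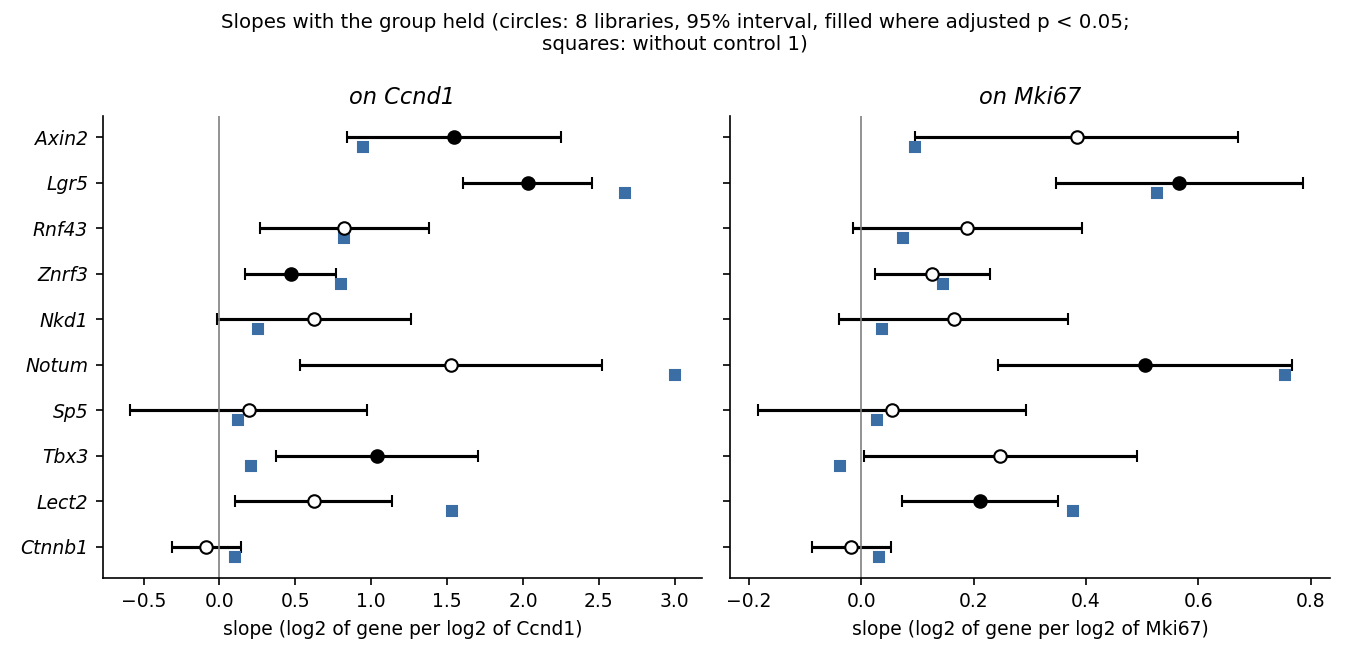
Slope of each member (horizontal axes, log2 units of the gene per log2 unit of Ccnd1 on the left or Mki67 on the right) with the group held, as circles with 95% intervals for 8 libraries, filled where the adjusted p is under 0.05, and squares without control 1. Lgr5 is at 2.03 on Ccnd1 with all libraries and at 2.67 without control 1, while Tbx3 moves from 1.04 to 0.21.

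Control 1 on Ccnd1, and control 1 and URI(+/D)Hep 5 on Mki67, lay apart from the other libraries, so correlations were taken over the remaining libraries only. There were 20 relations, each tested with an exact two-sided permutation test and adjusted by Benjamini-Hochberg over the 20. Over the 7 libraries with Ccnd1 between 2760 and 4742, Lgr5 correlated with Ccnd1 at r = 0.974 (exact permutation p = 0.000198, the smallest that 7 libraries can give, adjusted p = 0.00397). Spearman's rho for Lgr5 was 1 (exact permutation p = 0.000397, adjusted p = 0.00794), and r was 0.938 after leaving out the 2 libraries farthest from the median Ccnd1. Znrf3 followed at r = 0.902 (exact permutation p = 0.00496, adjusted p = 0.0496) and rho = 0.857 (exact permutation p = 0.0238, adjusted p = 0.119), with r at 0.905 without the 2 farthest. The other 8 members did not pass adjustment, with r from -0.0623 for Ctnnb1 and 0.250 for Tbx3 to 0.802 for Notum. Over the 6 libraries with Mki67 between 268 and 586, no member passed adjustment. The highest r with Mki67 were 0.873 for Tbx3 (exact permutation p = 0.0417, adjusted p = 0.129) and 0.857 for Notum (exact permutation p = 0.0208, adjusted p = 0.111), and the lowest was -0.533 for Nkd1. Too few libraries held both Xist and Y-linked reads, 5, for a correlation within them.

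**Figure D4:**
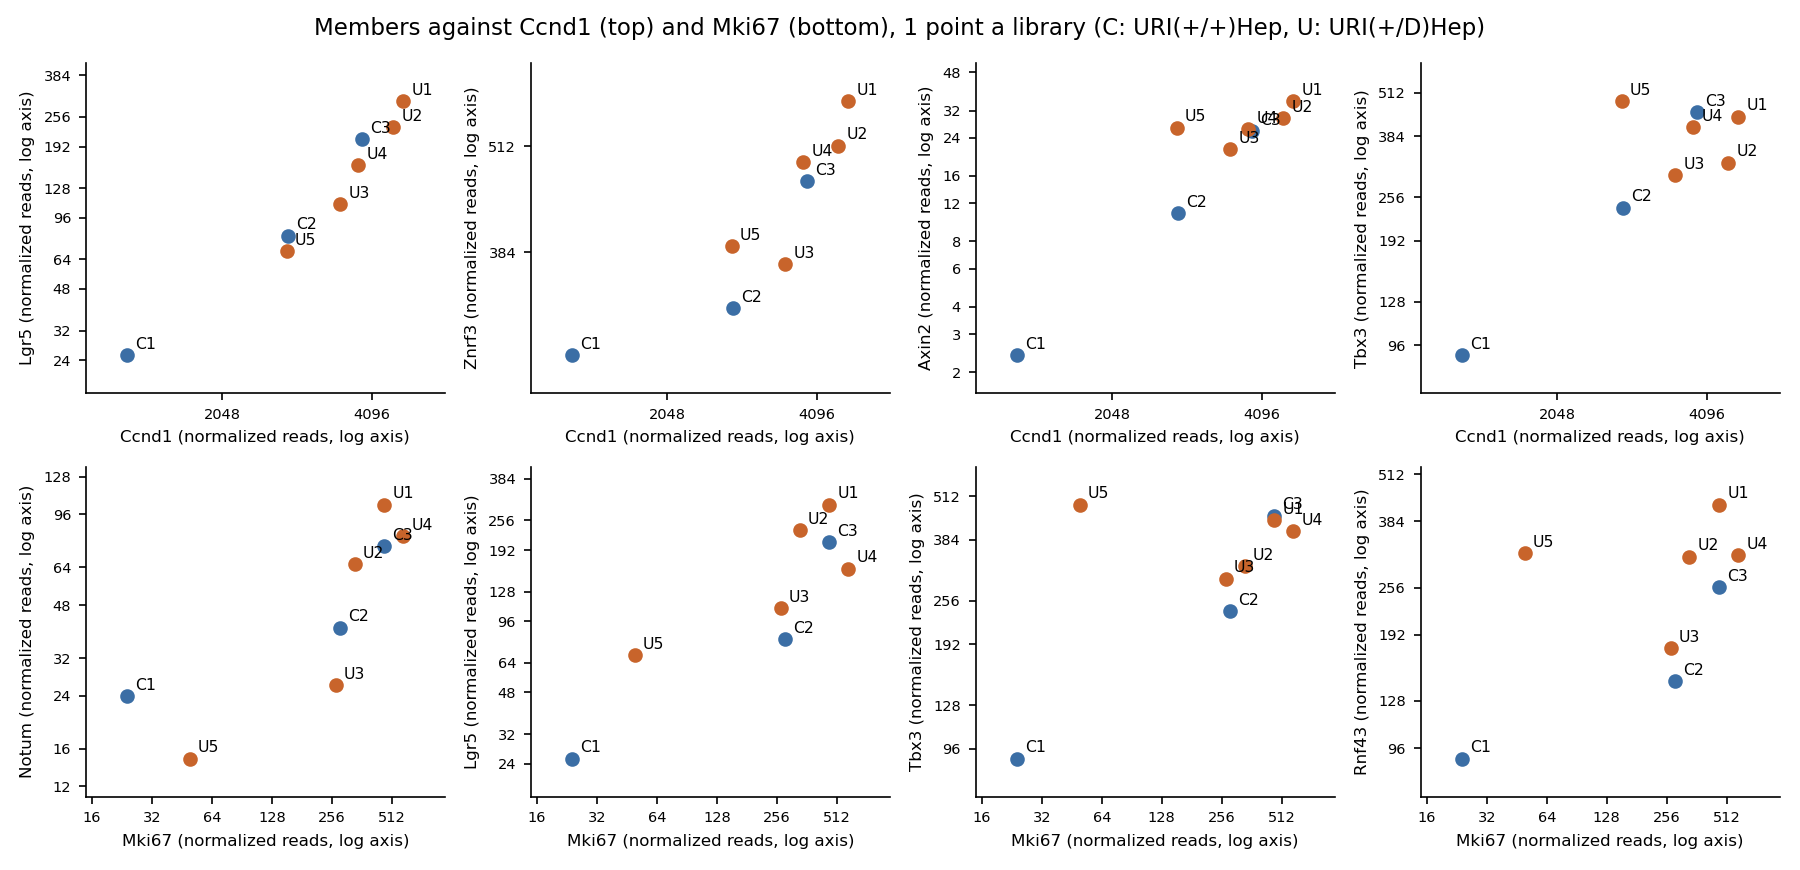
Normalized reads of Lgr5, Znrf3, Axin2 and Tbx3 against Ccnd1 (top row) and of Notum, Lgr5, Tbx3 and Rnf43 against Mki67 (bottom row), on log axes, with 1 point for each library (C in blue for URI(+/+)Hep, U in orange for URI(+/D)Hep). Lgr5 rises with Ccnd1 in the same order in 7 libraries, and U5, at a Mki67 of 49.5, is at 485 for Tbx3 and at 14.8 for Notum.

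The genes whose pattern over the 8 libraries was most like that of the 9 targets and feedback genes were ranked by Pearson's r with their mean standardised log2 level, among 9608 genes. The first were Nectin3, a cell adhesion gene (r = 0.997), Fabp1, the liver fatty acid binding protein (r = 0.997), Esr1, the oestrogen receptor α (r = 0.990), Cyp2c69 (r = 0.988) and Nrf1 (r = 0.987). Zfp385b, Aldh7a1, Slc1a2, Prickle1 and Kank1 followed with r from 0.983 to 0.987. Slc1a2 encodes a glutamate transporter of pericentral hepatocytes, and Prickle1 a component of planar cell polarity. On the same measure Ccnd1 was at 0.968, Glul at 0.958 and Mki67 at 0.829. Without control 1, the first 10 stayed between 0.955 and 0.994, Ccnd1 was at 0.931, Glul at 0.910 and Mki67 at 0.580. These values come from the same 8 libraries, which differ in depth and make-up, and carry no test.

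Control 1 was also the lowest library for part of the pericentral list, though not only there. Of 28 listed, 26 were tested, 18 higher and 8 lower in URI(+/D)Hep, at a median of 0.23, and none was called. Control 1 was the lowest library for 14 of the 26, URI(+/D)Hep 1 the highest for 9 and control 3 for 8. Genes of other lists also had control 1 lowest, such as periportal Cps1, Etnppl, Gls2 and Pigr and the macrophage gene Clec4f. Others had it highest, such as periportal Pck1 and Arg1 and the macrophage gene Marco. The share over all genes was not counted. Glul was at 495, 1283 and 2130 in the controls and at 2529, 1770, 1358, 2093 and 1668 in URI(+/D)Hep 1 to 5 (log2 fold change 0.74, SE 0.41, limma adjusted p = 0.378). Slc1a2 was at 562 ± 453 (SD, n = 3) and 950 ± 331 (SD, n = 5), with a log2 fold change of 1.08 (limma adjusted p = 0.338). Aldh3a2, an aldehyde dehydrogenase, had a log2 fold change of 0.77 (limma adjusted p = 0.142) and Avpr1a, a vasopressin receptor, of -0.65 (limma adjusted p = 0.314). A positive slope on Ccnd1 was called for 12 of the 26 pericentral genes, against 8.74% of all genes. On Mki67 a positive slope was called for 13, against 10.5%, and a negative one for 1, against 5.17%. Leaving out control 1 brought the positive counts to 3 on Ccnd1 and 7 on Mki67, against 0.62% and 4.48% of all genes.

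**Figure D5:**
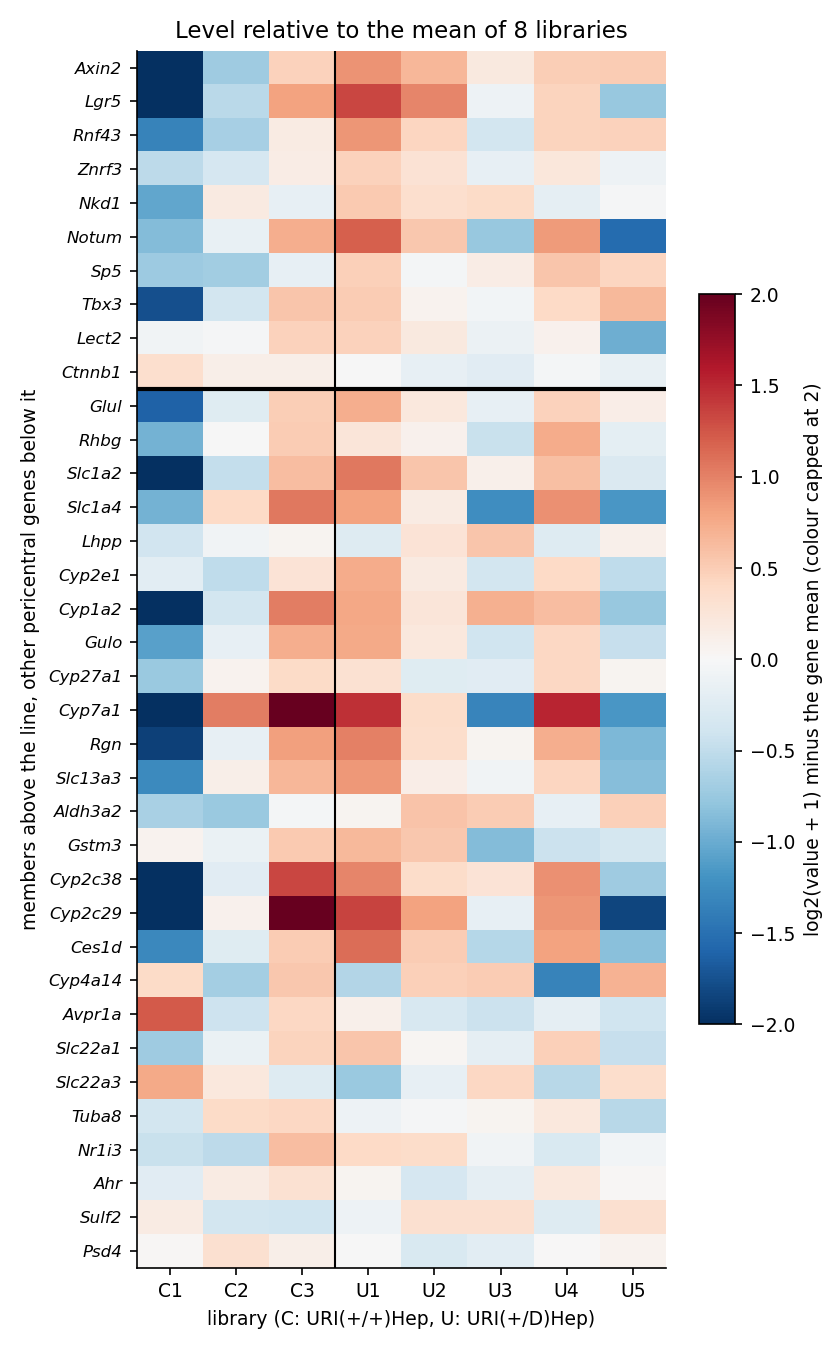
Log2(value + 1) of the 10 members (above the line) and 26 other pericentral genes (below it) in each library, C for URI(+/+)Hep and U for URI(+/D)Hep, as the difference from the gene's mean over 8 libraries (colour, limited to 2 in either direction). The first column, control 1, is the lowest library for 7 of the 9 targets and for 14 of the 26 pericentral genes. Genes of other lists also had control 1 lowest, and the share over all genes was not counted.

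Periportal genes, which mark the opposite end of the lobule, formed another zonal list. Of 20 tested, 12 were higher and 8 lower, with a median of 0.11 and none called. On Mki67, 2 had a called positive slope and 3 a called negative one, against 10.5% and 5.17% of all genes. Cps1, the first enzyme of the urea cycle, was at 1586 ± 443 (SD, n = 3) and 3175 ± 422 (SD, n = 5), with a log2 fold change of 1.03 (limma adjusted p = 0.108). Etnppl, a phospholyase, had a log2 fold change of 1.74 (limma adjusted p = 0.123) and Hsd17b13, a lipid droplet enzyme, of -0.57 (limma adjusted p = 0.127). The groups did not overlap for these 3 genes, which were named for the smallest p of the list, a choice that favours such genes. Over the 20, 3 were higher and 1 lower without overlap, against 6.13% and 7.3% of all genes.

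The rest of the Wnt pathway was read from lists of its parts, and no gene of them passed adjustment. Genes named below were those of smallest p in each list, a choice that favours groups without overlap. Of all genes, 6.13% were higher and 7.3% lower without overlap. Of 12 genes of the destruction complex and its partners, 6 were higher and 6 lower, with a median of -0.04. Btrc, which recognises marked β-catenin for ubiquitination, was at 205 ± 43.1 (SD, n = 3) and 280 ± 10.5 (SD, n = 5), without overlap (log2 fold change 0.47, limma adjusted p = 0.152). Apc had a log2 fold change of 0.24 (limma adjusted p = 0.273) and Gsk3a of -0.32 (limma adjusted p = 0.323). None of the 12 had a called slope on Ccnd1 or Mki67.

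Of 20 listed receptors and co-receptors, 17 were tested, 10 higher and 7 lower, with a median of 0.08. Ryk, a Wnt-binding receptor tyrosine kinase-like protein, was lower without overlap (log2 fold change -0.40, limma adjusted p = 0.148), Lrp5 was at -0.31 (limma adjusted p = 0.284) and Fzd1 at -0.75 (limma adjusted p = 0.307). Of 17 listed ligands and R-spondins, 6 were tested, 3 higher and 3 lower, with a median of -0.01. Wnt2 was at 152, 59.1 and 66.5 in the controls and at 152, 144, 106, 87.1 and 132 in URI(+/D)Hep 1 to 5 (log2 fold change 0.52, limma adjusted p = 0.417). For Wnt2, control 1 and URI(+/D)Hep 1 were the 2 highest libraries, whereas for 7 of the targets control 1 was the lowest. Wnt9b was at 0.21 (limma adjusted p = 0.808) and Wnt4 at -0.53 (limma adjusted p = 0.503).

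Of 16 nuclear factors, 11 were higher and 5 lower, with a median of 0.18. Tcf7l2, the main Tcf factor of the liver, was at 1149, 1336 and 1439 in the controls and at 1788, 1854, 1748, 1695 and 2293 in URI(+/D)Hep 1 to 5. All 5 URI(+/D)Hep libraries lay above all controls for Tcf7l2 (log2 fold change 0.52, SE 0.13, limma adjusted p = 0.119). Tle3 and Tle4, co-repressors that bind Tcf factors, differed in direction and neither overlapped between groups. Tle3 was at 344 ± 57.1 (SD, n = 3) and 195 ± 52.8 (SD, n = 5), a log2 fold change of -0.84 (limma adjusted p = 0.131), and Tle4 had one of 0.60 (limma adjusted p = 0.135).

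Of 26 other listed antagonists and targets, 14 were tested, 8 higher and 6 lower, with a median of 0.19. Prox1, a hepatocyte transcription factor, was at 1044 ± 48.3 (SD, n = 3) and 1393 ± 55.8 (SD, n = 5) without overlap (log2 fold change 0.42, limma adjusted p = 0.115). Sox9 had a log2 fold change of -1.68 (limma adjusted p = 0.200) and Jun of -0.48 (limma adjusted p = 0.252). Of 24 cell cycle genes, 21 were higher and 3 lower, with a median of 0.37 and none called. Ccne1 was at -0.49 (limma adjusted p = 0.338) and Ccne2 at 1.09 (limma adjusted p = 0.430). With the gene itself left out, 22 of 23 had a called positive slope on Mki67, against 10.5% of all genes. On Ccnd1 it was 21 of 23, against 8.74%. Without control 1 these counts were 21 on Mki67 and 1 on Ccnd1, against 4.48% and 0.62% of all genes.

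Markers of the cell types in whole liver were read beside the members. The summed level of 7 hepatocyte markers ranged from 40966 to 70938 in the controls and from 40244 to 50722 in URI(+/D)Hep. Control 1 was the highest, and 2 of 7 markers were higher in URI(+/D)Hep. Fgb alone made up 43487 of the sum in control 1, against 15605 to 25825 in the other libraries. Apoa1, Serpina1a and Hnf4a were also highest in control 1, Apob was lowest there, and Alb and Ttr lay within the range of the others. Endothelial markers, from the cells that supply Wnt ligands, summed to 2889 to 3458 and to 3252 to 3904, with control 1 the lowest and 11 of 15 higher. Sums were 1809 to 1976 and 1841 to 2156 for 11 stellate markers, 4 of them higher, and 6144 to 7804 and 6337 to 7770 for 11 Kupffer and macrophage markers, 8 of them higher. Cholangiocyte markers summed to 247 to 1675 in the controls and 223 to 929 in URI(+/D)Hep, with 1 of 4 higher and Krt19 at 0 in some library. Leukocyte markers summed to 622 to 1104 and 540 to 1016, with 2 of 6 higher and Ly6g, Cd3e, Cd8a and Nkg7 at 0 in some library. No marker was called, and the part of cell composition in the levels of the members was not tested.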

How the data were processed

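Mouse liver RNA in 8 libraries, 3 URI(+/+)Hep and 5 URI(+/D)Hep, was sequenced from the 3′ ends of transcripts with a 6-nt molecular identifier, per the labels' protocols. Tools listed by the submitters' processing notes, without versions, are DESeq2, featureCounts and bcl2fastq, and the build listed is GRCm39. For the aligner, annotation, use of the identifiers and strand setting of the counting, nothing is given in the sources used here. The deposited table holds the authors' normalized signal, and 100% of its values were whole multiples of each library's smallest value within 1e-06, which gave the reads. The smallest total of a gene over the libraries was 10 reads. Values were tested as log2(value + 1), a scale that understates changes of low genes, with limma 3.58.1 in R 4.3.3 (mean-variance trend, Benjamini-Hochberg adjustment over all genes tested, threshold 0.05), and checked on simulated data. Slopes used the group as a covariate. Alternatives included edgeR 4.0.16 and DESeq2 1.42.0 on recovered reads. From each zonal, Wnt pathway and cell cycle list the 3 genes with the smallest p were named. Also named were the members, Glul, Ccnd1, Mki67, Uri1 and the 10 genes most like the members. Cell type markers were read mainly as sums and counts, and not all of their genes with the smallest p were named. Intervals on reads cover counting error only. The members and lists were chosen with earlier results of these data known.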

Additional observations from a re-analysis of the deposited data

Results flagged for a closer look

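In 2 of 54 genes checked, a library of the URI(+/D)Hep group stood apart from the other 4, its gap to the nearest being over 0.71 of the group's range, which chance gives in about 1 of 20 groups. Tcf7l2 was at 2293 in URI(+/D)Hep 5, against 1854 in the next highest and 1695 in the lowest library of the group (gap 0.734 of the range). Epcam was at 525 in URI(+/D)Hep 5, against 29.96 in the next highest and 7.96 in the lowest (gap 0.957 of the range).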

How the results depend on the processing

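No member was called in any of 24 alternative settings, and of 237 alternative values of their fold changes 223 kept their sign. The fold changes of Axin2, Rnf43, Nkd1, Sp5 and Ctnnb1 never changed sign, and for Sp5 the filter favoured that sign. Axin2, Nkd1 and Sp5 were not tested at a mean of at least 50, and DESeq2 gave them no adjusted p. Genes called higher numbered 0, and 1 at a mean of at least 50, 1 without both libraries of lowest Mki67, 64 with Mki67 as a covariate, 234 with DESeq2 and 0 to 11 when 1 library was left out. Genes called lower numbered 2, and 1 after quantile normalization, 105 with Mki67 as a covariate, 339 with DESeq2 and 0 to 23 when 1 library was left out. They numbered 0 without the trend, without both libraries of lowest Mki67, in the libraries with Xist and Y-linked reads, with the Y-linked share or Ccnd1 as a covariate, and with edgeR on 7 libraries (chosen after seeing the data). With the replicate block, which leaves URI(+/D)Hep 4 and 5 out of the contrast, 0 were called lower and Lect2 was at 0.062. No pairing by replicate number was seen: deviations of equal numbers correlated at -0.40, -0.04 and -0.27, and 0 of 3 controls were most like their own number. With only 3 controls this check cannot decide whether the libraries were paired. The median of the members was -0.18 in the libraries with Xist and Y-linked reads, 0.11 with Ccnd1 as a covariate and 0.23 to 0.83 when 1 library was left out. In the libraries with Xist and Y-linked reads the log2 fold change was -0.67 for Lgr5, -0.090 for Znrf3, -0.28 for Tbx3 and -0.96 for Notum. With Ccnd1 as a covariate it was -0.30 for Lgr5 and -0.84 for Notum, and for Notum it was -0.56 with the Y-linked share and -0.26 with Mki67. Lect2 was at 0.027 with edgeR on 7 libraries. When 1 library was left out, Notum ranged from -0.23 to 0.57 and Lect2 from -0.32 to 0.037. Members with a called slope numbered 3 on Mki67 and 4 on Ccnd1, each 0 without both libraries of lowest Mki67 and 1 to 4 when 1 library was left out. Without both, the slope on Mki67 was -0.39 for Nkd1 and 0.15 for Ctnnb1, and on Ccnd1 -0.029 for Nkd1 and 0.14 for Ctnnb1. When 1 library was left out, slopes on Mki67 ranged from -0.038 to 0.50 for Tbx3 and -0.039 to 0.031 for Ctnnb1, and on Ccnd1 from -0.050 to 0.27 for Sp5 and -0.12 to 0.11 for Ctnnb1. The cause of these changes was not tested. Axin2, Sp5 and Nkd1 held 2 to 40 reads per library, and the part of counting error in these changes was not tested.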

Other observations

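Sox9 and Spp1, both expressed in cholangiocytes and in hepatocytes that take on biliary features, set controls 1 and 2 apart from the other 6 libraries. Sox9 was at 1141 and 631 in controls 1 and 2 and at 108 to 175 in the other 6 libraries. Spp1 was at 458 and 377 in controls 1 and 2 and at 90.9 to 144 in the other 6. Krt19, Krt7, Epcam and Cldn4, from the same list of cholangiocyte markers, did not set these controls apart. Each was highest in URI(+/D)Hep 5, and Epcam, at 28.8 and 27.6 in controls 1 and 2, was at 29.96 in URI(+/D)Hep 3. The log2 fold change of Sox9 was -1.68 (SE 0.59, limma adjusted p = 0.200) and that of Spp1 was -1.13 (SE 0.44, limma adjusted p = 0.235). Controls 1 and 2 are also the 2 libraries with Xist near 0 (9.59 and 2.95), and the part of that in these values was not tested.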
